A study of Mus musculus with 8 samples.

Results

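A set of 8 Notch pathway genes was followed in cultured sacral neural crest cells of Sox10 mutant and wild-type mouse embryos. They were the ligand genes Jag2 and Dner, the regulators Numb and Dtx3, the coactivator Maml1 and the transcription factor genes Hes1, Hes6 and Hey2. A probe set was taken for a gene when the platform annotation gave it that symbol alone, which gave 1 probe set for each of the 8 genes, out of 6855 genes tested. The 8 genes were chosen by name, with earlier results of these data known.

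The study compared 4 arrays of cultures of Sox10 Dom homozygotes (Dom/Dom) with 4 arrays of wild-type (WT) cultures, and replicates were numbered 1 to 4 in each genotype. Dom is a frameshift allele of Sox10, a transcription factor gene of the neural crest, and is carried by all cells of the embryo. Both genotypes came from embryos at embryonic day 9.5, and the labels give no strain. The neural tube caudal to somite 24 was kept in DMEM/F12 with 10% serum, its explant was removed after 24 hours, and RNA was taken from the cells that had migrated out. Expression was read on Affymetrix Mouse Gene 1.0 ST arrays, and values are log2 levels per probe set, so a difference of 1 is a 2-fold change.

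Notch is a receptor that is activated by ligands of the Delta and Jagged families on a neighbouring cell. Cleavage by an ADAM protease and then by gamma-secretase frees its intracellular part, which joins the DNA-binding protein RBPJ and a Mastermind coactivator in the nucleus and switches on Hes and Hey genes. HES and HEY proteins are repressors that hold back proneural genes, and in the neural crest lineage the pathway is known for keeping progenitors undifferentiated and for favouring glia over neurons.

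Sox10 itself was 10.50 ± 0.40 in Dom/Dom and 11.69 ± 0.18 in WT cultures (SD, n = 4 each), a difference of -1.20 (limma adjusted p = 0.0168). The mutant transcript can still be made, so this does not check the labels. Of 14 neural crest markers 10 were measured, and their mean level lay between 11.07 and 11.29 in the Dom/Dom arrays and between 11.52 and 11.82 in the WT arrays. That mean includes Sox10. Of the 10 markers 6 were below 0, down to -1.57 for Erbb3, and 4 were above by 0.02 to 0.10 (Sox9, Tfap2b, Pax3 and Twist1). By genotype alone 2 fell, Sox10 and Erbb3, where 0.481% of all genes passed. With the replicate number as a block 3 fell, Tfap2a being the third (-0.50, limma adjusted p = 0.0418), where 1.5% of all genes passed. The ranges of the genotypes were separate for 4 of the 10, against 3.78% of all genes. Of the markers of other cells, 6 of 14 neuronal, 7 of 12 mesodermal, 7 of 11 epithelial, 2 of 12 endothelial and 1 of 13 neural tube genes were measured. Whether the replicates were separate embryos or litters is not stated in the labels, and the p-values cover the spread of these arrays alone, part of which may be technical. In RNA from whole cultures, fewer cells of a type and less RNA per cell cannot be told apart.

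None of the 8 genes passed the test of the genotypes over all genes. With limma, 0 of 8 passed an adjusted p of 0.05, where 0.481% of all genes did, and 0 of 8 passed with the replicate number as a block, where 1.5% of all genes did. At an unadjusted p under 0.05 there was 1 gene, Hes1, against 6.11% of all genes, and with the block there were 3, Hes1, Hes6 and Hey2, against 13.9% of all genes. The ranges of the genotypes overlapped for all 8 genes, while the ranges were separate for 3.78% of all genes. The median difference of the 8 genes was -0.01, and that of all genes was -0.0009.

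Over all arrays without the block, the 4 differences of largest size were those of Hes6 (-0.33), Hey2 (-0.30), Hes1 (0.22) and Dner (-0.19). Hey2 exceeded Hes6 with array weights (-0.40 against -0.34), without Dom/Dom replicate 3 or 4 or WT replicate 1 or 2, and with the block without replicate 2. Hes6 and Hey2 were lower in Dom/Dom in 4 of 4 same-numbered pairs of arrays, which was also so for 10.7% of all genes. Hes1 was higher in 3 of 4 pairs and Dner lower in 3 of 4, with replicate 1 the exception for both. The other 4 genes differed by 0.06 or less.

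Jag2 (probe set 10402808, chr12:112907803-112929812) encodes a Jagged ligand of Notch receptors. Gene positions are those of RefSeq on GRCm38.p6. Jag2 levels were 9.31, 9.25, 8.83 and 8.77 in Dom/Dom replicates 1 to 4, against 9.14, 9.14, 9.00 and 8.89 in WT replicates 1 to 4. In each genotype replicates 1 and 2 stood above replicates 3 and 4, and the Dom/Dom values lay on both sides of the WT values. The difference was -0.0008 with a 95% interval from -0.29 to 0.29 (limma adjusted p = 1.00), and by pairs it was 0.16, 0.12, -0.16 and -0.12. The interval allows a change of up to 1.23-fold upward in Dom/Dom, and downward to a ratio of 0.82.

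Dner (probe set 10356177, chr1:84369839-84696221) encodes a transmembrane protein of neurons with EGF-like repeats, described as a non-canonical Notch ligand. Its levels were 10.24, 9.63, 9.45 and 9.55 in Dom/Dom replicates 1 to 4, against 9.66, 10.10, 10.01 and 9.87 in WT replicates 1 to 4. Dom/Dom replicate 1 was the highest of all 8 arrays, and the other 3 Dom/Dom arrays were below every WT array. The difference over all arrays was -0.19 (95% interval -0.56 to 0.18, limma adjusted p = 1.00). By pairs it was 0.58, -0.46, -0.56 and -0.32.

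Numb (probe set 10401382, chr12:83794034-83921942), an endocytic adaptor that inhibits Notch, lay between 11.14 and 11.30 in Dom/Dom and between 11.06 and 11.30 in WT arrays. Its difference was 0.02 (95% interval -0.16 to 0.20, limma adjusted p = 1.00). Dtx3 (probe set 10373093, chr10:127190373-127196498), a ubiquitin ligase of the Deltex family, lay between 10.22 and 10.40 in Dom/Dom and between 10.23 and 10.45 in WT arrays, a difference of -0.02 (95% interval -0.20 to 0.17, limma adjusted p = 1.00). Same-numbered Dtx3 values differed by -0.04 to 0.01, while over all arrays the gene spanned 0.23, with replicates 1 and 2 above replicates 3 and 4 in both genotypes.

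Maml1 (probe set 10385591, chr11:50255634-50293131), the Mastermind coactivator that binds the Notch and RBPJ complex, lay between 10.38 and 10.47 in Dom/Dom and between 10.22 and 10.45 in WT arrays. The difference was 0.06 (95% interval -0.11 to 0.23, limma adjusted p = 1.00), and it was positive in 2 pairs and negative in 2. For Numb, Dtx3 and Maml1 the intervals end at 1.15-fold, 1.12-fold and 1.17-fold higher in Dom/Dom, so larger increases lie outside them. At the low end they reach ratios of 0.89, 0.87 and 0.93, so larger decreases lie outside them too.

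Hes1 (probe set 10434925, chr16:30065357-30067796) encodes the repressor that is the best known target of Notch, and it binds N-box sequences upstream of proneural genes. Its levels were 10.78, 10.99, 11.06 and 11.02 in Dom/Dom replicates 1 to 4, against 10.86, 10.81, 10.61 and 10.69 in WT replicates 1 to 4. Dom/Dom replicates 2 to 4 were above every WT array, and Dom/Dom replicate 1 lay among the WT arrays. Hes1 averaged 10.96 ± 0.12 in Dom/Dom and 10.74 ± 0.11 in WT (SD, n = 4 each), a ratio of 1.16, which gave a difference of 0.22 (SE 0.09) that did not pass (limma adjusted p = 0.709). By pairs the difference was -0.08, 0.18, 0.45 and 0.33.

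Hes6 (probe set 10356593, chr1:91411483-91414038) encodes a HES protein that is known to oppose HES1 and to promote neuronal differentiation. Its levels were 11.26, 10.76, 10.09 and 10.12 in Dom/Dom replicates 1 to 4, against 11.38, 11.14, 10.58 and 10.45 in WT replicates 1 to 4. Each Dom/Dom array was below the WT array of its number, and in both genotypes replicates 1 and 2 were above replicates 3 and 4. The mean difference was -0.33, with a standard error of 0.28 without the block and 0.07 with it (limma adjusted p = 1.00, and 0.0813 with the replicate block). The mean of replicates 1 and 2 exceeded that of replicates 3 and 4 by 0.82, the widest such gap of the 8 genes.

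RefSeq holds 2 promoter windows for Hes6, shown because Hes6 was lower in each pair and the mutated gene encodes a SOX factor. Below are the 250 bases before each start site on the minus strand of GRCm38.p6, at chr1:91414039-91414288 and chr1:91413223-91413472, with matches to ACAANG, a core SOX letter pattern, in capitals.
Hes6 window 1: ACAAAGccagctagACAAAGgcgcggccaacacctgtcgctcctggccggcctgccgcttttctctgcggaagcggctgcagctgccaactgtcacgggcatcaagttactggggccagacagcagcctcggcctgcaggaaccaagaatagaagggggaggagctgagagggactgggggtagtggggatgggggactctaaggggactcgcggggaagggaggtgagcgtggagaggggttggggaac
Hes6 window 2: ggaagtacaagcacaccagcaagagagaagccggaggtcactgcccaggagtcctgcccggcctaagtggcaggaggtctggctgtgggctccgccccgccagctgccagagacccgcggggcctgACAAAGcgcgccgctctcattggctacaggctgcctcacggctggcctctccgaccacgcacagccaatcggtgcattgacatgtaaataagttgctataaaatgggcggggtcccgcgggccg
Window 1 holds 2 matches and window 2 holds 1. On either strand the pattern occurs in 41.2% of all 32851 promoter windows, and in 6 of 9 windows of the members. Hey2, also lower in each pair, had no match in its window, while Dner, Numb and Maml1 had matches. Whether the SOX10 protein acts on Hes6 was not tested.

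Hey2 (probe set 10368556, chr10:30832359-30842783) encodes a Hairy-related repressor best known from arteries and the heart. Its levels were 8.98, 9.24, 9.35 and 9.38 in Dom/Dom replicates 1 to 4, against 9.17, 9.30, 9.77 and 9.90 in WT replicates 1 to 4. WT replicates 3 and 4 were the highest arrays, Dom/Dom replicate 1 was the lowest, and each Dom/Dom array was below the WT array of its number. Hey2 differed by -0.30 (95% interval -0.66 to 0.07, limma adjusted p = 1.00, and 0.164 with the replicate block). By pairs the difference was -0.19, -0.07, -0.42 and -0.51.

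Of the 6 members with RefSeq promoter windows (9 windows of 300 bases), Hey2 was the one with a match to GTGGGAA, the core letters bound by RBPJ, and is shown for that reason. Below are the 250 bases before its start site and the 3 after it, on the minus strand of GRCm38.p6 at chr10:30842781-30843033, with matches on either strand in capitals.
Hey2: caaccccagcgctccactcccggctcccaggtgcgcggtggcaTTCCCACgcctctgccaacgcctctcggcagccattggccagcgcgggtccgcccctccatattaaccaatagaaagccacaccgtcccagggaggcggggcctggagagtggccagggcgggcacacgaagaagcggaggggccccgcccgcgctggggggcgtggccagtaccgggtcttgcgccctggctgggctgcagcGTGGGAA
The match on the opposite strand starts at base -207, and the match on the gene's strand starts at base -4 and runs over the start site. Such a match occurs in 6.38% of all windows. The N box (CACNAG) was found in 3 of the 9 windows and in 42.5% of all windows, and the E box (CACGTG) in 0 of 9 and in 7.15%. No promoter window was at hand for Hes1 and Dtx3, so these genes could not be searched.

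**Figure D1:**
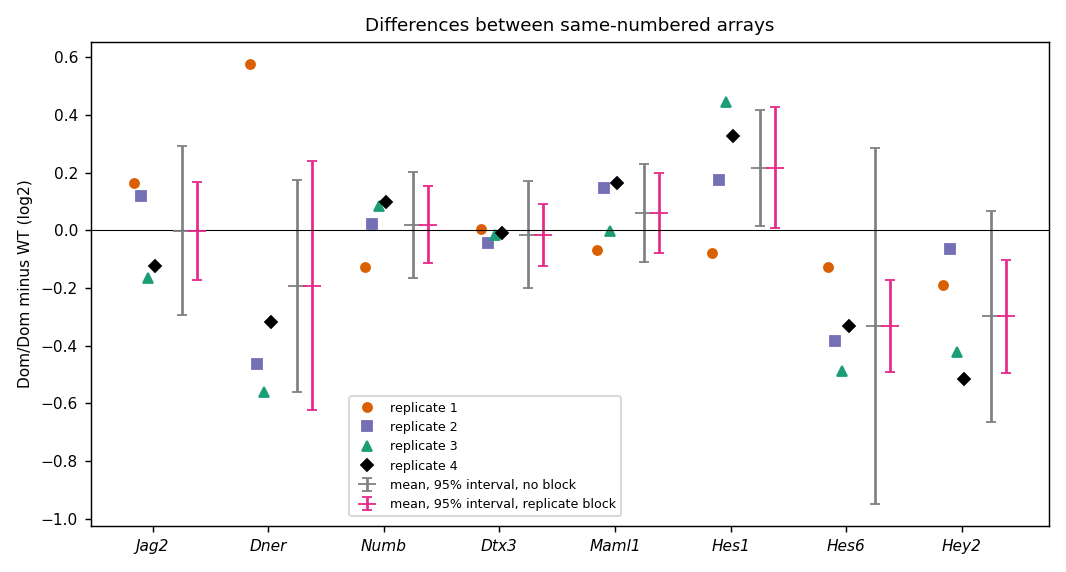
Difference of Dom/Dom minus WT (log2, y axis) for each replicate number, with the mean and its 95% interval from limma without (grey) and with (pink) the replicate block. Hes6 and Hey2 have 4 of 4 points below 0, and replicate 1 of Dner stands at 0.58 where its other pairs are between -0.56 and -0.32.

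Replicate 1 decided how many of the genes passed. With the replicate block and without both arrays of replicate 1, 3 of 8 genes (37.5%) passed, where 6.93% of all genes did. Hes1 differed by 0.32 (SE 0.07, limma adjusted p = 0.0447), Hes6 by -0.40 (SE 0.06, adjusted p = 0.0129) and Dner by -0.45 (SE 0.06, adjusted p = 0.0136). Each had the same direction in 3 of 3 pairs. For Hes1 and Dner the pair left out was the only one in the other direction, so leaving it out fixed that agreement. Hey2 did not pass in that fit (-0.33, adjusted p = 0.0950). With the block and without replicate 2, 3 or 4, and without the block whichever single array was left out, 0 of 8 passed.

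The wider Notch list held 92 genes, the 8 among them, and also took in target genes and proneural genes. It had 26 measured members, and none of its 4 receptor genes was among these. Without the block 0 of 26 passed with limma, where 0.481% of all genes did. At an unadjusted limma p under 0.05 there were 2, Hes1 and Cntn1, against 6.11% of all genes. In that fit the list stood near the background. With the block 7 of the 26 had such an unadjusted p, against 13.9% of all genes. Of the 26, 10 were above 0 and 16 below, against 3397 above and 3455 below of all 6855 genes, and the median difference was -0.04. With the block 1 passed, where 1.5% of all genes did. It was Dlk1, which encodes a ligand-like protein that lacks the Notch-activating DSL domain. Dlk1 was 11.68, 11.92, 12.41 and 12.44 in Dom/Dom replicates 1 to 4, against 11.21, 11.57, 11.98 and 11.95 in WT replicates 1 to 4. It was higher in Dom/Dom in 4 of 4 pairs, by 0.34 to 0.49 (mean 0.44, limma adjusted p = 0.900, and 0.0164 with the replicate block). Higher values in 4 of 4 pairs were found for 10.4% of all genes.

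Of the other measured ligand genes, Cntn1, a neuronal adhesion molecule described as a Notch ligand, differed by -0.41 (95% interval -0.72 to -0.10, limma adjusted p = 0.453). It passed with array weights (-0.54, limma adjusted p = 0.0336), as did 2.77% of all genes, but not with the replicate block (adjusted p = 0.156). Among the genes for glycosylation of Notch, the fringe gene Mfng differed by -0.16 (95% interval -0.47 to 0.15) and Rfng by -0.06 (95% interval -0.22 to 0.09). Among the cleavage genes, the gamma-secretase gene Psen2 differed by -0.17 (95% interval -0.34 to 0.01) and the protease gene Adam17 by 0.07 (95% interval -0.21 to 0.35). The acetyltransferase gene Ep300, of the nuclear group, differed by 0.03, and Myc, a Notch target in other cells, by 0.17 (95% interval -0.21 to 0.55).

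All 3 measured proneural genes, which HES proteins are known to repress, had differences below 0, as had 3455 of all 6855 genes. None of the 3 passed with limma. Neurog1, which starts sensory neuron formation, was 10.14, 9.93, 9.61 and 9.68 in Dom/Dom replicates 1 to 4, against 9.76, 10.25, 10.38 and 10.15 in WT replicates 1 to 4. Its difference was -0.30 (95% interval -0.63 to 0.04, limma adjusted p = 0.966). Neurod4, which acts after the neurogenins, differed by -0.24 (95% interval -0.66 to 0.19, adjusted p = 1.00). In pair 1 both were higher in Dom/Dom, by 0.37 and 0.71, and in pairs 2 to 4 both were lower. Neurog3 differed by -0.13 (95% interval -0.64 to 0.39). It was higher in Dom/Dom by 0.92 in pair 1 and lower in pairs 2 to 4. Repression by HES proteins was not tested.

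Without replicate 1 and with the block, 7 of the 18 measured genes of the wider list outside the 8 passed. Of these, 2 were higher and 5 lower in Dom/Dom, where 6.93% of all genes passed (201 higher and 274 lower). The lower ones include the 3 measured proneural genes, which are not parts of the pathway itself. The higher ones were Dlk1 (0.42, limma adjusted p = 0.0108) and Myc (0.38, adjusted p = 0.0163). The lower ones were Cntn1 (-0.56), Neurod4 (-0.55), Neurog1 (-0.52), the endocrine neurogenin Neurog3 (-0.48) and Mfng (-0.33), with limma adjusted p from 0.00422 to 0.0230. All of these except Dlk1 went the other way in pair 1, the pair left out. Neurog3 is named after its values were seen, and it was dim, at 7.38 to 8.58, below the lowest array median of 8.60.

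**Figure D2:**
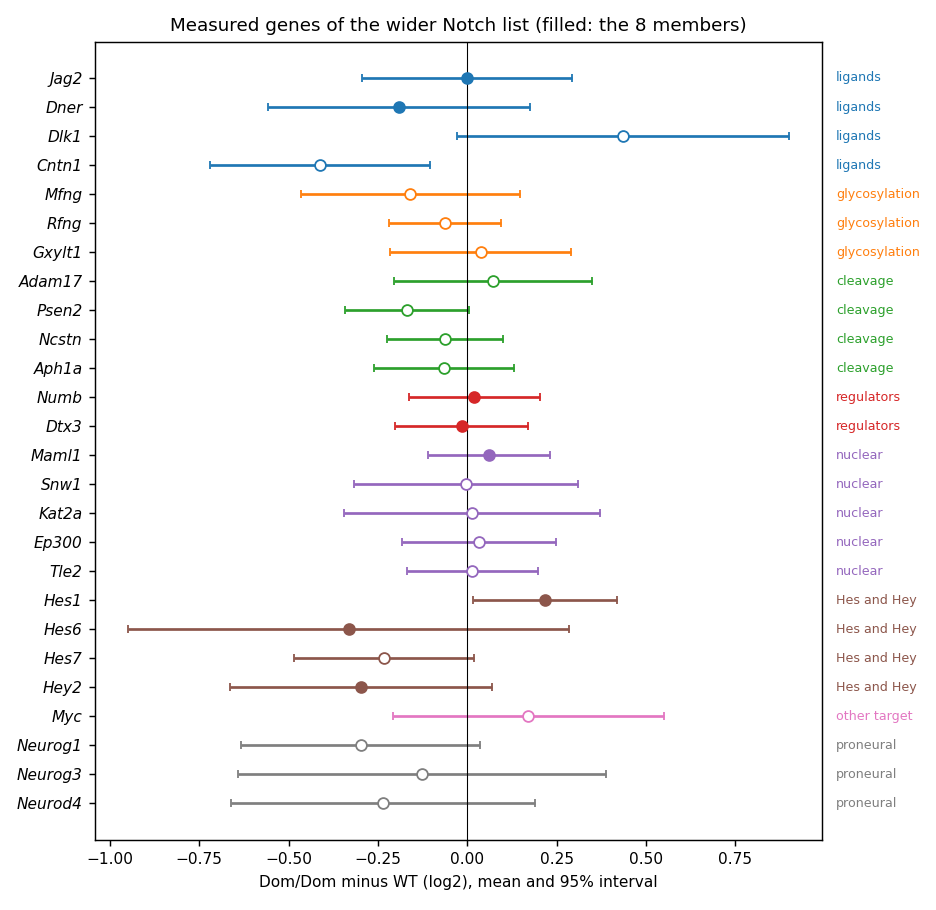
Mean difference of Dom/Dom minus WT (log2, x axis) with its 95% interval from limma without the block, for the 26 measured genes of the wider Notch list, grouped by role. Filled points are the 8 members; most intervals include 0, and those of Hes1 and Cntn1 do not.

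Neuronal markers moved with several of these genes over the arrays. The mean level of the 6 measured neuronal genes (Nefl, Nefm, Isl1, Pou4f1, Neurod4 and Cntn2) was 11.09, 10.50, 10.72 and 10.79 in Dom/Dom replicates 1 to 4, against 10.78, 11.07, 11.39 and 11.43 in WT replicates 1 to 4. The differences of all 6 were below 0, with a median of -0.30 against -0.0009 for all genes. Of these 6 genes 0 passed without the block, where 0.481% of all genes did. With the block 1 fell, the sensory factor gene Pou4f1, where 1.5% of all genes passed. Hes1 was low where this mean was high (Pearson r = -0.905, Spearman rho = -0.857 over 8 arrays), with r = -0.77 when the 2 arrays farthest from the median, WT replicates 3 and 4, were left out. With the neuronal mean r was also -0.749 for Maml1, -0.697 for Numb, 0.653 for Hey2, -0.285 for Dtx3 and -0.143 for Jag2. Maml1 and Numb differed by only 0.06 and 0.02 between the genotypes. Other marker lists moved with members too. Over the 8 arrays Hes1 had r = -0.79 with the epithelial mean and -0.722 with the neural crest mean. Without WT replicates 3 and 4, its r with the neural crest mean was -0.297. With the mesodermal mean Hes6 had r = -0.777 and Dner -0.757. These points share their cultures and genotypes, and the part of neuronal RNA in the difference of Hes1 was not tested.

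Dner followed the mean of the 3 proneural genes, of which Neurod4 is also in the neuronal mean and Neurog3 was dim. The proneural mean was 10.31, 9.90, 9.54 and 9.55 in Dom/Dom replicates 1 to 4, against 9.64, 10.24, 10.17 and 10.12 in WT replicates 1 to 4. Over the 8 arrays r was 0.947 and rho 0.976, and r was 0.906 without Dom/Dom replicates 3 and 4. With the neuronal mean, r was 0.671 for Dner and 0.038 for Hes6, and without WT replicates 3 and 4 it was 0.827 for Dner and 0.455 for Hes6. The part of neuronal RNA in the difference of Dner was not tested either.

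**Figure D3:**
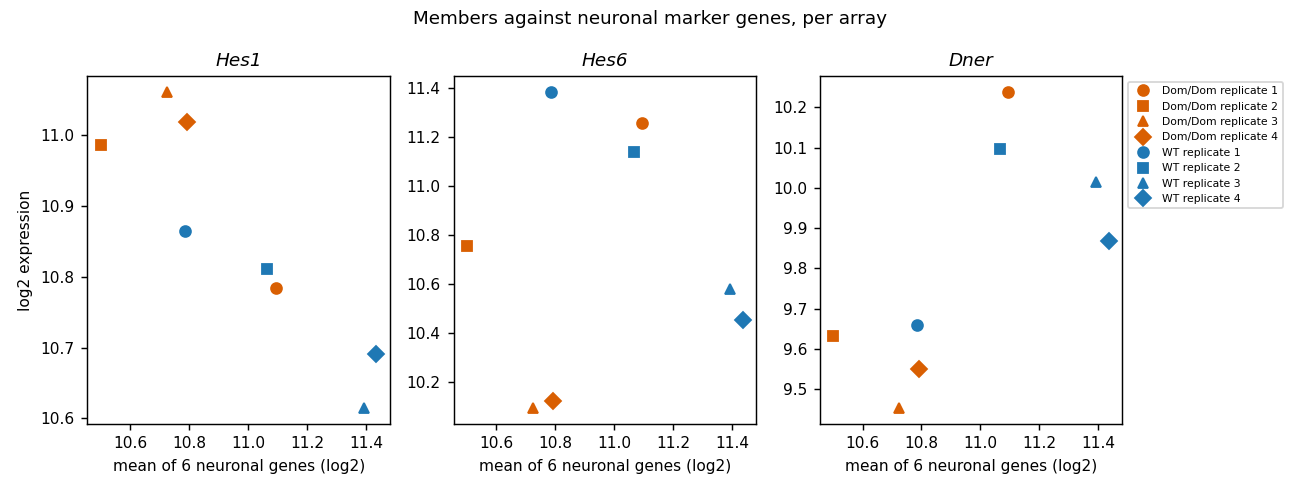
Log2 expression of Hes1, Hes6 and Dner (y axes, each with its own range) against the mean log2 level of 6 neuronal marker genes (x axis) in the 8 arrays, with Dom/Dom in orange and WT in blue. Hes1 is low where the neuronal mean is high, with r = -0.905, and for Hes6 r was 0.038 over all 8 arrays and 0.455 without WT replicates 3 and 4.

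Among the 28 pairs of members, correlations over the 8 arrays ran from -0.767 (Hes1 and Dner) to 0.896 (Jag2 and Dtx3). Hes6 correlated with Dtx3 at 0.864 and with Jag2 at 0.858, and in these 3 genes replicates 1 and 2 stood above replicates 3 and 4 within each genotype. Their correlations include that split of the replicates. Mean levels in replicates 1 and 2 minus those in 3 and 4 were 0.34 for Jag2, 0.17 for Dtx3 and -0.43 for Hey2.

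The 3 genes most like each member by Pearson r over the 8 arrays were listed, as a description. Hes1 was most like the gap junction gene Gja1 (0.978), the slow skeletal troponin gene Tnni1 (0.963) and Galnt4, which starts O-glycosylation (0.954). Hes6 was most like Zfhx2, a zinc finger homeobox gene (0.985), the bHLH gene Ferd3l (0.979) and the neuroligin gene Nlgn2 (0.977). Dner was most like the endopeptidase gene Ecel1 (0.980), Rundc3a (0.973) and the homeobox gene Lhx1 of spinal interneurons (0.963).

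Hey2 was most like Slc4a1, the anion exchanger of red blood cells (0.983), Pkhd1l1 (0.976) and Cyria (0.971). Slc4a1 was 8.67, 9.42, 9.62 and 9.69 in Dom/Dom replicates 1 to 4, against 9.37, 9.30, 10.93 and 10.94 in WT replicates 1 to 4. Like Hey2, it was highest in WT replicates 3 and 4 and lowest in Dom/Dom replicate 1, and r was 0.935 without those 2 WT arrays. The part of blood cell RNA in the difference of Hey2 was not tested. The endothelial markers Pecam1 and Cldn5 differed by -0.03 and -0.09. Cldn5 was lower in 4 of 4 pairs, as were 10.7% of all genes, and Pecam1 in 2 of 4. Both were dim, Pecam1 at 8.01 to 8.36 and Cldn5 at 8.31 to 8.72, where the lowest array median was 8.60.

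Jag2 was most like the kinase gene Csnk1d (0.988), which spanned 0.10 over the arrays where Jag2 spanned 0.54, and Prl8a8 (0.980) and Asb13 (0.978) followed. Numb was most like Lrch1 (0.990), Atf7ip2 (0.984) and Imp4 (0.980), and Dtx3 like Glrx5 (0.982), Mnt (0.981) and the lamin gene Lmnb2 (0.980). Maml1 had the weakest likeness, to Gm16497 (0.942), Pgam2 (0.931) and the kinase gene Mapkapk2 (0.905). Some genes listed as most like a member were dim, below the lowest array median of 8.60 on every array. They were Prl8a8 (4.72 to 4.99), Gm16497 (6.52 to 6.80) and Pkhd1l1 (7.05 to 8.51). Atf7ip2 (7.26 to 8.17), Ferd3l (7.61 to 8.06) and Pgam2 (7.86 to 8.14) were dim too.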

How the data were processed

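The 8 arrays were grouped by genotype and numbered from the sample titles. The deposited values are log2 levels per probe set, and the authors used RMA and Partek, per the submitters' processing notes, with their versions and settings not stated there. The RMA method compresses differences of dim probe sets, and no detection calls were at hand. The table used here held 16381 probe sets, of which 7416 had 1 gene symbol, 509 several and 8456 none. The brightest single-symbol probe set stood for each of 6855 genes, with 6829 matched by gene ID to RefSeq (GRCm38.p6). Array medians were 8.60 to 8.78, and the precision is limited by the small number of arrays.

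The test was limma 3.58.1 under R 4.3.3, two-sided, by lmFit and eBayes with a term for genotype alone, adjusted by Benjamini-Hochberg over all genes at a threshold of 0.05. The fit without the block was tested on simulated data in which arrays varied independently. The replicate block, the array weights and the fits that left out arrays or pairs were not tested in that way. Deviations of same-numbered arrays from their genotype's mean correlated at 0.465, 0.577, 0.607 and 0.668, each over 0.1, and the numbers were therefore treated as pairs; this pairing comes from the data, and no label states it. Unlike numbers also passed that limit, with 0.381 for Dom/Dom 3 and WT 4, 0.21 for Dom/Dom 4 and WT 3, 0.14 for Dom/Dom 2 and WT 1, and 0.107 for Dom/Dom 1 and WT 2, so a split of replicates 1 and 2 from 3 and 4 would pass it too. Alternatives were the replicate block, array weights, other probe set, scaling and filter choices, and leaving out arrays or pairs. The members, gene lists and tests were chosen with earlier results of these data known. Named genes were the 8 members, Sox10, per pathway list the genes past the threshold or else the 2 of largest difference, with any whose groups did not overlap, and the 3 genes most like each member. Promoter sequences are from RefSeq.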

Additional observations from a re-analysis of the deposited data

Results flagged for a closer look

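Among the 19 named genes whose levels were searched, each genotype's 4 arrays were examined for 1 array that stood apart from its group. Of 38 sets of 4 arrays 4 held one, and chance gives about 1.9. Maml1 stood at 10.47 in Dom/Dom replicate 2, and at 10.38 to 10.39 in the remaining Dom/Dom arrays. Myc stood at 12.01 in the same array, and at 11.59 to 11.65 in the remaining Dom/Dom arrays. Psen2 stood at 8.68 in WT replicate 2, below 8.80 to 8.82 in the remaining WT arrays. Neurod4 stood at 11.51 in WT replicate 1, below 12.11 to 12.22 in the remaining WT arrays.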

How the results depend on the processing

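Over the 8 alternatives that kept all arrays, the differences of Hes1 (0.22 to 0.32), Hes6 (-0.34 to -0.30), Hey2 (-0.40 to -0.26), Dner (-0.35 to -0.16), Numb and Maml1 kept their direction and none of the 8 genes passed. The lowest adjusted p were 0.0555 for Hes1 with array weights and 0.0813 for Hes6 with the replicate block. With arrays centred on their medians Jag2 was 0.0348 and Dtx3 0.0203, and with a further quantile normalization 0.0387 and 0.0041, each the reverse of the sign in the report. The count of all genes called was 33, against 103 with the replicate block, 190 with array weights and 4 over all probe sets; of the wider Notch list 1 gene passed with the block (Dlk1) and 1 with array weights (Cntn1). Leaving out 1 array gave 10 to 51 genes and 0 of the 8; Hes1 then ranged from 0.17 to 0.28, Hes6 from -0.57 to -0.17 (lowest without Dom/Dom replicate 1, weakest without WT replicate 1), Hey2 from -0.42 to -0.18, Dner from -0.36 to -0.10, Jag2 from -0.0896 to 0.0901, Numb from -0.0249 to 0.0565 and Dtx3 from -0.0515 to 0.0216. With the replicate block and without 1 pair the counts for all genes were 475, 112, 15 and 13 without replicates 1 to 4 in turn, and they ran from 0 to 3 for the 8 genes and from 0 to 10 for the wider list. The differences then ran from 0.14 to 0.32 for Hes1, -0.40 to -0.28 for Hes6, and -0.45 to -0.07 for Dner. Without replicate 3 or 4 the signs of Jag2 (0.0534 and 0.0396) and Numb (-0.0014 and -0.0066) were reversed. The highest counts were those without replicate 1, and the cause was not tested. Signal over background could not be assessed, so the differences of dim probe sets may be understated.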

Other observations

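Hes7, the segmentation clock gene of the presomitic mesoderm, was chosen after its values were seen, as the only other measured gene of the Hes and Hey list besides the 3 described. It was 8.78, 8.65, 8.71 and 8.37 in Dom/Dom replicates 1 to 4, against 9.06, 8.75, 8.94 and 8.69 in WT replicates 1 to 4. Each Dom/Dom array was below the WT array of its number, and the genotypes overlapped. The difference was -0.23 (95% interval -0.48 to 0.02, limma adjusted p = 0.923, and 0.119 with the replicate block). Of the 7 measured mesodermal markers, 5 had differences above 0 and 2 below, Msgn1 (-0.07) and Osr1 (-0.05). Without the block 0 passed, where 0.481% of all genes did. With the block 1 rose, Prrx1 (0.44, limma adjusted p = 0.0339 with the replicate block, higher in 4 of 4 pairs). Of all genes 1.5% passed with the block, and 10.4% were higher in 4 of 4 pairs. Myf5 differed by 0.60 with genotypes that did not overlap (limma adjusted p = 0.201, and 0.119 with the replicate block). Such separate ranges were found for 3.78% of all genes. Myf5 was dim, at 7.39 to 8.38, below the lowest array median of 8.60. The 7 markers' mean level lay between 8.84 and 9.17 in Dom/Dom and between 8.58 and 8.96 in WT arrays.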
